A study of Mus musculus with 20 samples.

Results

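The complement genes described here, 9 in number, were followed in RNA-seq data of whole mouse kidneys with and without deletion of Fh1. They are the components C2, C3, C4b and Cfb, the regulators Cfi, Cd55 and Cd59a, and the receptors C3ar1 and C5ar1. They were taken by symbol from a table of 24421 gene symbols, and all 9 were found. Fh1 encodes fumarate hydratase, an enzyme of the tricarboxylic acid cycle, and the study asked what follows its loss in the adult kidney over time. Fh1-/- mice were homozygous for an allele with exons 3 and 4 between LoxP sites and carried R26 CreERT2, a Cre recombinase expressed in all tissues and switched on by tamoxifen, so that deletion was not limited to the kidney. Fh1+/+ mice were littermates without the LoxP allele that carried the same Cre, and both genotypes received tamoxifen by intraperitoneal injection (2 mg, 3 times, every other day) at 12 weeks of age. The mice were of both sexes and of a mixed C57BL/6 and 129/SvJ background, and pieces of snap-frozen kidney were used. The data hold 5 libraries each from Fh1-/- and Fh1+/+ kidneys at day 10 and from Fh1-/- and Fh1+/+ kidneys at day 5 after induction, 20 in all.

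Complement is a set of plasma and membrane proteins that marks surfaces for removal. Antibody or sugar patterns start the classical and lectin pathways, in which C4 and C2 form an enzyme that cleaves C3, and the alternative pathway uses factor B (Cfb) for the same cleavage. Cleaved C3 attaches to surfaces, and small fragments of C3 and C5 act on the receptors C3ar1 and C5ar1. Factor I (Cfi) cuts and inactivates the attached C3 and C4 fragments, Cd55 takes the C3-cleaving enzymes apart, and Cd59a blocks the pore that forms at the end of the cascade. Most circulating complement is made in the liver, while tubule epithelium of the kidney can make C3, C4 and factor B itself.

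Total counts were between 16654829 and 25001294 per library. On the first principal component of all genes (42.7% of the variance), Fh1-/- day 10 replicates 1 and 3 lay at 125 and 128 and the other libraries between -31.4 and 30.2, so values without these 2 libraries are given where they bear on a result. Values are given as CPM, which are counts scaled to a common library size after TMM normalization, and log2 fold changes, also called log2 differences, are of Fh1-/- over Fh1+/+ kidneys unless the days are named. The sum of the Y-linked transcripts Ddx3y, Eif2s3y, Kdm5d and Uty was under 2 CPM in 3 of 5 Fh1-/- and 2 of 5 Fh1+/+ libraries at day 10, and in 2 of 5 Fh1-/- and 1 of 5 Fh1+/+ libraries at day 5. Fh1 itself was at 249 to 420.5 CPM in Fh1-/- and 224 to 258 CPM in Fh1+/+ libraries at day 10, and at 199.7 to 239 CPM in Fh1-/- and 219 to 265 CPM in Fh1+/+ libraries at day 5. A count over the whole gene includes exons that remain after deletion of exons 3 and 4, and cannot serve as a check of the genotype labels. Markers of kidney were present, such as Slc34a1 of the proximal tubule, which averaged 1892 CPM in Fh1-/- and 4488 CPM in Fh1+/+ libraries at day 10. The labels do not name the animals behind the libraries, and p-values reflect only how far these libraries spread.

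The genes were expressed at very different levels. Per kilobase of exon, a scale that allows genes to be compared, C3 had the highest mean in Fh1-/- kidneys at day 10, at 621 CPM per kb (range 74.3 to 1325), followed by Cfb at 304 CPM per kb (190.0 to 473). Their ranges overlapped, and both means lay above those of C2 (34.5 CPM per kb), Cfi (28.2) and Cd59a (18.9), which overlapped from one neighbour to the next. C4b at 7.36, Cd55 at 1.85, C5ar1 at 0.76 and C3ar1 at 0.51 CPM per kb came last, with only C5ar1 and C3ar1 overlapping. In Fh1+/+ kidneys at day 10 the order was different. Cfb came first at 136 CPM per kb, apart from all others, and Cd59a (23.1), C3 (22.0) and C2 (17.2) overlapped below it. Cfi (3.73), Cd55 (3.52), C4b (1.69), C3ar1 (0.97) and C5ar1 (0.89 CPM per kb) followed, each overlapping the next. At day 5 Cfb averaged 162 CPM per kb in Fh1-/- and 141 CPM per kb in Fh1+/+ kidneys, and C3 averaged 21.8 CPM per kb in Fh1-/- and 20.8 CPM per kb in Fh1+/+ kidneys. The places of Cfb and C2 in these orders are limited by a readthrough gene that shares exon bases with both, as given below.

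**Figure D1:**
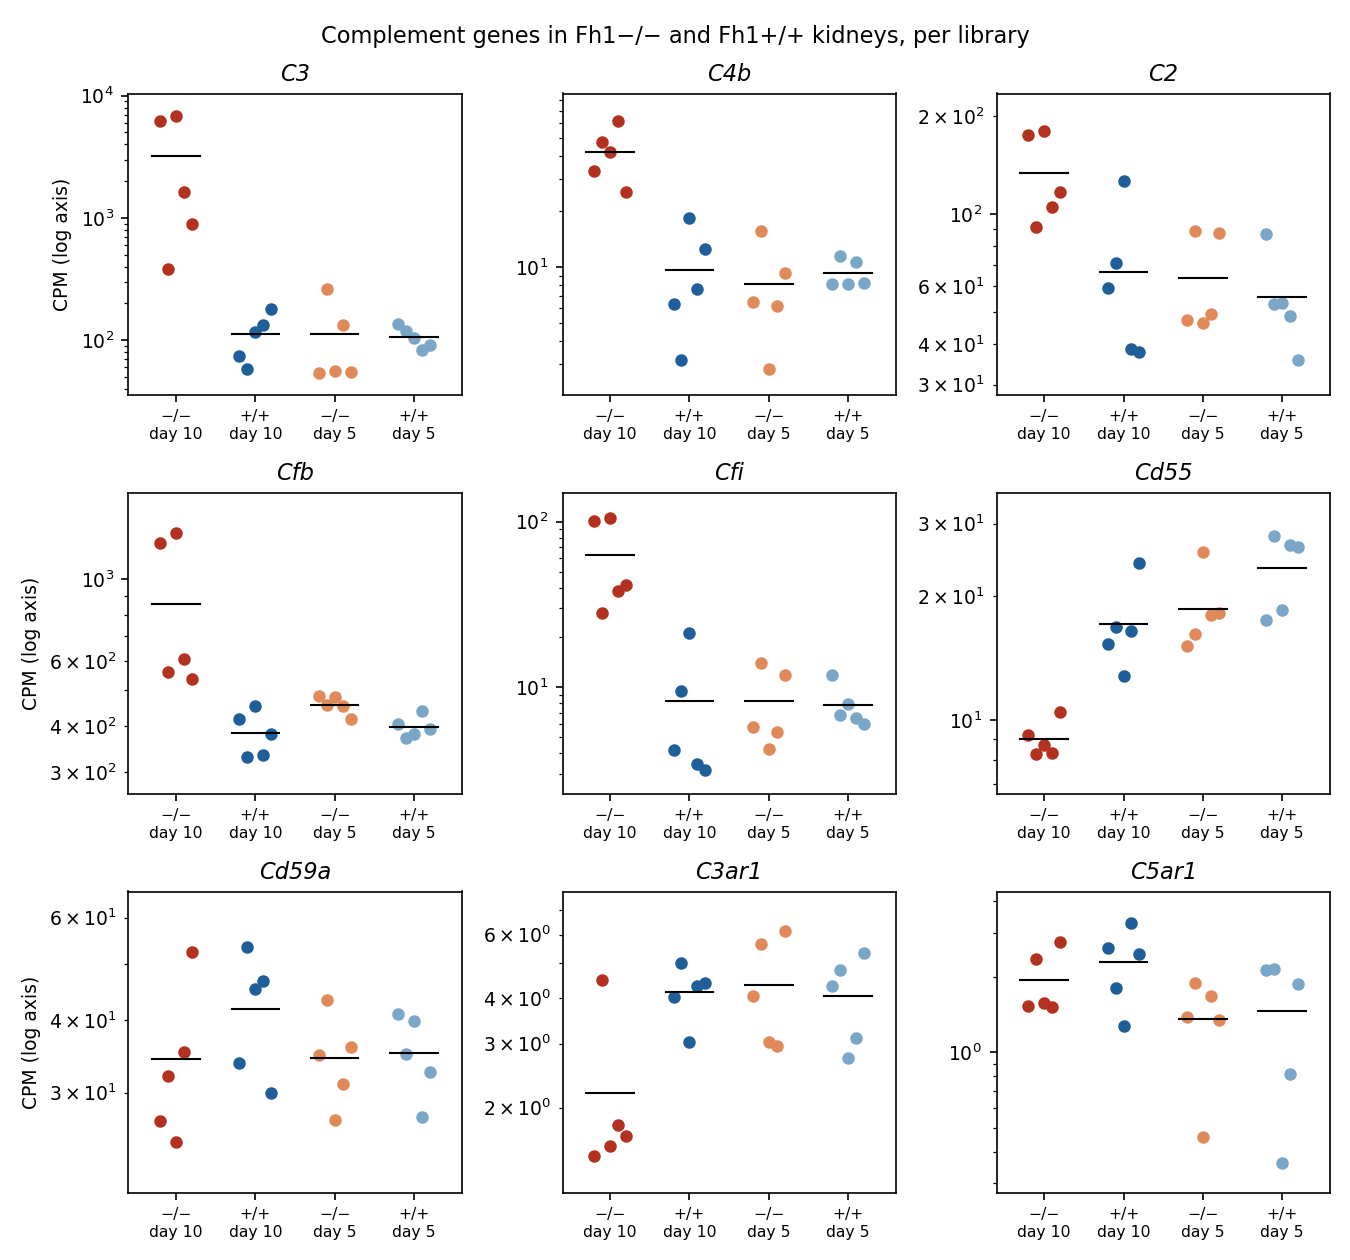
Each panel shows 1 gene in all 20 libraries, as CPM on a log axis. Points are libraries, set in the order of their replicate numbers, and bars are group means of 5. At day 10 the Fh1-/- points of C3, C4b, Cfb and Cfi all lie above the Fh1+/+ points and those of Cd55 all lie below, while at day 5 the genotypes overlap for every gene.

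At day 10, transcripts of the components C3, C4b and Cfb and of the regulator Cfi were higher in every Fh1-/- library than in every Fh1+/+ library, and the membrane regulator Cd55 was lower. DESeq2 called these 5 genes and edgeR none of them, and C2 overlapped between the genotypes. The log2 fold changes were 4.81 for C3, 2.91 for Cfi, 2.11 for C4b, 1.15 for Cfb, 0.99 for C2 and -0.94 for Cd55. The 5 Fh1-/- libraries lay outside the range of the 5 Fh1+/+ libraries for C3, C4b, Cfb and Cfi (higher, 4 of 9 genes, against 4.42% of all genes tested) and for Cd55 (lower, 1 of 9, against 3.43%). None of the 9 passed the study's thresholds (an adjusted p under 0.01 and an absolute log2 fold change over 0.58) in edgeR's quasi-likelihood test, where 0.0279% of all genes passed as higher and 0.0279% as lower. By unadjusted edgeR p under 0.05, 5 of 9 were higher (15.1% of all genes) and 2 of 9 lower (11.9%). DESeq2 at the study's thresholds called C3, C4b, Cfb and Cfi higher (4 of 9, against 3.49% of all genes) and Cd55 lower (1 of 9, against 2.06%). The median log2 fold change of the 9 genes was 0.99, and that of all genes tested was -0.0007. Since the 9 were chosen with earlier results of these data known, these shares and medians are a description only.

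C3 is the protein on which all pathways converge. In Fh1-/- kidneys at day 10 replicates 1 to 5 had 6241, 382, 6815, 1632 and 896 CPM of C3, against 74.8, 58.0, 118, 134 and 180.1 CPM in Fh1+/+ kidneys. All Fh1-/- libraries were higher than all Fh1+/+ libraries, and they spread over 17.8 times among themselves, with replicates 1 and 3 highest and replicate 2 lowest. Even replicate 2 was 3.38 times the Fh1+/+ mean, and the raw counts of C3 reached 101810 in 1 Fh1-/- library. The log2 fold change was 4.81 with a standard error, SE, of 0.82 (edgeR adjusted p = 0.0271, DESeq2 adjusted p = 1.404e-10), which ranked 16 among 14360 genes. It was 3.10 without Fh1-/- day 10 replicates 1 and 3 (edgeR adjusted p = 0.0410), and without Fh1-/- day 10 replicate 2 alone it passed the thresholds given above (edgeR adjusted p = 0.0048, the lowest in 10 fits that each left out 1 library).

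C3 lies on the minus strand of chromosome 17 (57203970 to 57228136, GRCm38) and Cd55 on the minus strand of chromosome 1 (130439027 to 130462744). Their promoters are shown as those of the genes with the largest difference in each direction among the members that did not overlap between genotypes. RefSeq sequences of GRCm38.p6 from 250 bases before to 50 bases after the start of the gene were at hand for 5 of the 9 genes (C3, Cd55, Cd59a, C3ar1 and C5ar1). On both strands, 4 motifs were searched, namely the NF-kB consensus, the STAT motif TTCNNNGAA, the C/EBP motif TTGCNNAA and the interferon response motif GAAANNGAAA. Capitals mark a match, and Cd55 has none.
C3 (chr17:57228087-57228386, minus strand): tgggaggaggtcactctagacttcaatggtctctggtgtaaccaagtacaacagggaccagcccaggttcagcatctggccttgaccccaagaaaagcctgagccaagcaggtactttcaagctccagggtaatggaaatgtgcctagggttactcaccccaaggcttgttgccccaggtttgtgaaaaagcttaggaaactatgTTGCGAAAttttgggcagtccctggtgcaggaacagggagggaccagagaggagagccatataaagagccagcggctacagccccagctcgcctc
Cd55 (chr1:130462695-130462994, minus strand): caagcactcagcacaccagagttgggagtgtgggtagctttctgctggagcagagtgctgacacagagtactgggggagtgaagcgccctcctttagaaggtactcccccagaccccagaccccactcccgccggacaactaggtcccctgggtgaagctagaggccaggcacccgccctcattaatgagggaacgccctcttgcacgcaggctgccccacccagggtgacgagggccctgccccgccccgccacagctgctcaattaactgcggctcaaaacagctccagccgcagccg
The C/EBP match of C3 lies 45 to 38 bases before the start, and 10.8% of 32851 promoters of the same length hold that motif. Cd59a holds a match to the interferon response motif, which 3.44% of promoters hold. The NF-kB consensus (4.51% of promoters) and the STAT motif (8.3%) were in 0 of the 5 windows. A match describes the letters of the window and does not show binding.

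C4b, C2 and Cfb lie on the minus strand of chromosome 17 (C4b 34728380 to 34743882, Cfb 34856374 to 34862518 and C2 34862604 to 34898265, GRCm38), in the class III region of the major histocompatibility complex, with 85 bases between Cfb and C2 and with C4a between C4b and Cfb. C3 lies 22.3 Mb away on the same chromosome. C4b, the fourth component of the classical and lectin pathways, was at 33.1, 47.4, 41.9, 62.0 and 25.3 CPM in Fh1-/- kidneys at day 10, against 6.35, 3.14, 18.3, 7.65 and 12.6 CPM in Fh1+/+ kidneys. The groups did not overlap, and replicate 4, not 1 or 3, was the highest Fh1-/- library. This gave a log2 difference of 2.11 (SE 0.43, edgeR adjusted p = 0.0376), and 2.22 without replicates 1 and 3 (edgeR adjusted p = 0.0825). The near-identical paralog C4a, which may share reads with C4b, had 3 to 10 counts per library in these Fh1-/- kidneys, against 540 to 1105 counts of C4b. C4a came to at most 1.78% of the C4b counts in Fh1-/- and 12.1% in Fh1+/+ libraries at day 10, and to at most 61.2% in Fh1-/- and 18.1% in Fh1+/+ libraries at day 5.

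Cfb encodes factor B, which supplies the protease of the alternative pathway. Its level was 1256, 561, 1336, 607 and 537 CPM in Fh1-/- kidneys at day 10, against 417, 330.3, 453, 333 and 381 CPM in Fh1+/+ kidneys. The groups did not overlap, but replicates 1 and 3 stood well above the other Fh1-/- libraries, the lowest of which was at 537 CPM, against 453 CPM in the highest Fh1+/+ library. Cfb thus had a log2 difference of 1.15 (SE 0.29, edgeR adjusted p = 0.0604, DESeq2 adjusted p = 0.0027) and 0.57 without replicates 1 and 3 (edgeR adjusted p = 0.0975). C2, the protease that pairs with C4, was at 175, 91.5, 180, 105 and 117 CPM in Fh1-/- kidneys, against 59.2, 70.9, 127, 38.5 and 37.6 CPM in Fh1+/+ kidneys. The 2 groups overlapped through Fh1+/+ replicate 3, and only Fh1-/- replicates 1 and 3 exceeded that library. C2 had a log2 difference of 0.99 (SE 0.35, edgeR adjusted p = 0.112), and of 0.65 without replicates 1 and 3. The annotation also holds Gm20547, a readthrough gene on the same strand that was not analysed here, which covers 79.5% of the exon bases of Cfb and 42.8% of those of C2, so how reads of these genes were assigned is a limit of both values.

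Among the regulators, Cfi had the largest difference. This gene of chromosome 3 (plus strand, 129835884 to 129875332, GRCm38) encodes a plasma protease that inactivates C3b and C4b. It was at 100.5, 27.9, 105, 38.0 and 41.8 CPM in Fh1-/- kidneys at day 10, against 4.15, 9.43, 21.2, 3.42 and 3.18 CPM in Fh1+/+ kidneys. All Fh1-/- libraries were higher than all Fh1+/+ libraries, again with replicates 1 and 3 above the rest. For Cfi the log2 fold change was 2.91 (SE 0.62, edgeR adjusted p = 0.0410, DESeq2 adjusted p = 3.673e-05), and 2.11 without those 2 libraries (edgeR adjusted p = 0.117).

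Cd55, a membrane protein that limits complement on the body's own cells, was the 1 gene of the 9 that lay lower in all Fh1-/- than in all Fh1+/+ libraries at day 10. It was at 9.19, 8.27, 8.67, 8.30 and 10.4 CPM in Fh1-/- kidneys, against 15.3, 16.8, 12.8, 16.4 and 24.1 CPM in Fh1+/+ kidneys. The 5 Fh1-/- libraries lay within a narrow range, and replicates 1 and 3 did not stand apart from the others. For Cd55 the log2 fold change was -0.94 (SE 0.17, edgeR adjusted p = 0.0335, DESeq2 adjusted p = 7.277e-05), and -0.92 without replicates 1 and 3 (edgeR adjusted p = 0.0911). An antisense transcript, Gm16083, overlaps 2.1% of the exon bases of Cd55, and the paralog Cd55b had 0 to 2 counts per library. Cd59a, the inhibitor of the terminal pore, lies on the plus strand of chromosome 2 (104095801 to 104115354, GRCm38). It was at 24.7 to 52.3 CPM in Fh1-/- kidneys (median 32.0) and at 30.0 to 53.4 CPM in Fh1+/+ kidneys (median 45.2), and the groups overlapped. Its log2 fold change was -0.30 (SE 0.22, edgeR adjusted p = 0.385), with a 95% interval (normal, from the SE) of -0.74 to 0.13.

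The receptors were the least expressed of the 9 genes per kilobase in Fh1-/- kidneys. C3ar1, the receptor of the C3 fragment C3a (chromosome 6, minus strand, 122847138 to 122856161, GRCm38), was at 1.47, 4.50, 1.56, 1.79 and 1.66 CPM in Fh1-/- kidneys at day 10, against 4.05, 4.99, 3.04, 4.33 and 4.41 CPM in Fh1+/+ kidneys. Every Fh1+/+ library was above 4 of the 5 Fh1-/- libraries, and replicate 2 was within the Fh1+/+ range. For C3ar1 the log2 fold change was -0.93 (SE 0.33, edgeR adjusted p = 0.118), and without replicate 2 it was -1.37 (edgeR adjusted p = 0.0076), which passed the thresholds. Without replicates 1 and 3 it was -0.65 (edgeR unadjusted p = 0.0986, adjusted p = 0.347). C5ar1, the receptor of C5a (chromosome 7, minus strand, 16246743 to 16259540, GRCm38), was at 1.51 to 2.74 CPM in Fh1-/- kidneys and 1.27 to 3.26 CPM in Fh1+/+ kidneys, from 22 to 61 and 23 to 61 counts per library. Its log2 fold change of -0.24 (edgeR adjusted p = 0.621) had an SE of 0.30.

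Both receptors are known from myeloid cells, so leukocyte markers are given beside them. Of 5 leukocyte markers (Ptprc, Itgb2, Coro1a, Laptm5 and Cd53), all had a log2 fold change below 0 (median -1.07). In edgeR, 4 of them were lower at an unadjusted p under 0.05 (11.9% of all genes) and 0 passed the study's thresholds. DESeq2 called 1 of them lower, Coro1a (2.06% of all genes). Their summed level was 21.0, 69.1, 26.1, 48.4 and 45.1 CPM in Fh1-/- kidneys, against 86.2, 59.7, 77.0, 93.7 and 78.7 CPM in Fh1+/+ kidneys. Fh1-/- replicate 2, the library with the highest C3ar1, also had the highest leukocyte sum of its group, and its sum lay within the Fh1+/+ range. Of 9 macrophage and monocyte markers, 7 were below 0 (median -1.01), none at 0 counts, with a summed level of 139 to 1035 CPM in Fh1-/- and 157 to 263 CPM in Fh1+/+ kidneys. Cd14 made up most of the upper end, at 8.21 to 965 CPM in Fh1-/- and 7.99 to 13.3 CPM in Fh1+/+ libraries. Cd68 averaged 18.6 CPM in Fh1-/- and 6.99 CPM in Fh1+/+ libraries. By unadjusted edgeR p under 0.05, 1 of these 9 markers was higher (15.1% of all genes) and 4 lower (11.9%), and 0 passed the study's thresholds. DESeq2 called Cd14 higher (3.49% of all genes) and Adgre1 lower (2.06%). All markers of some other cell types lay below 0 at day 10. These were 5 of 5 fibroblast (median -1.14), 5 of 5 endothelial (median -0.63) and 6 of 6 proximal tubule markers (median -0.58). Other lists were mixed. Above 0 were 2 of 5 loop and distal (median -0.11), 1 of 4 podocyte (median -0.50) and 2 of 3 adipocyte markers (median 0.29). Neither edgeR nor DESeq2 called any marker of these lists. The proximal tubule sum was 2497, 9627, 2733, 6185 and 5807 CPM in Fh1-/- replicates 1 to 5, against 8609 to 10807 CPM in Fh1+/+ kidneys. Replicates 1 and 3 were also the lowest of the Fh1-/- libraries for the fibroblast, endothelial and leukocyte sums. The part of cell content in the complement values was not tested, and in whole tissue fewer cells of a type and less RNA per cell cannot be told apart.

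**Figure D2:**
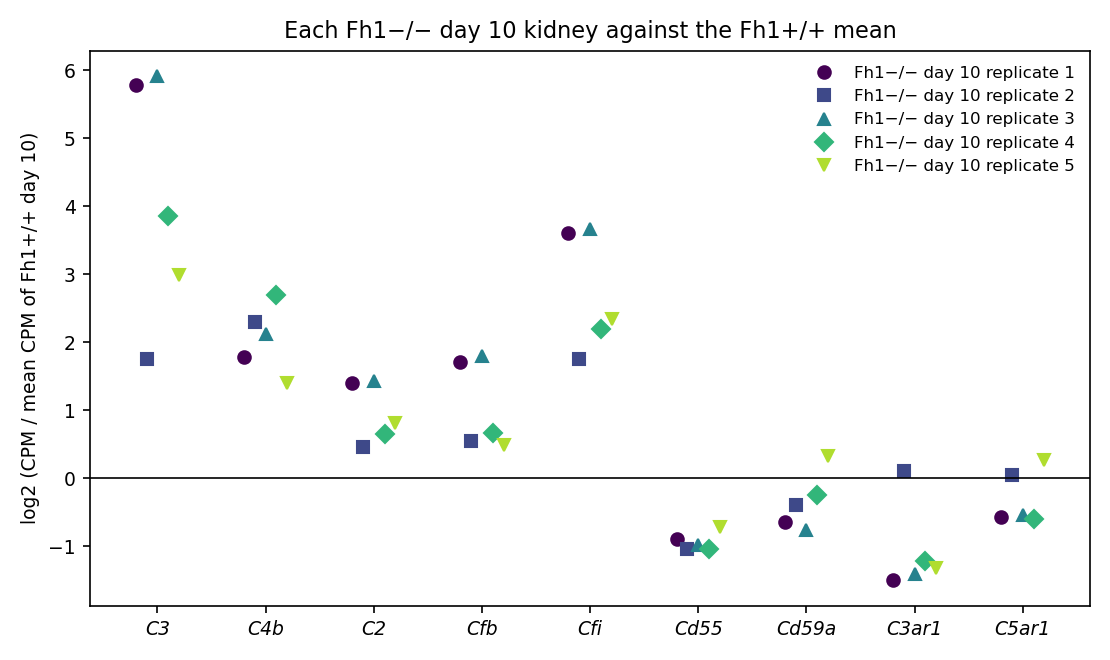
Each point is 1 Fh1-/- library at day 10, plotted as the log2 ratio of its CPM to the mean of the 5 Fh1+/+ libraries of that day, with a symbol per replicate. Replicates 1 and 3 are highest for C3, C2, Cfb and Cfi but not for C4b, and replicate 2 stands alone for C3ar1.

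Transcripts of hepatocytes, the usual source of complement in blood, overlapped in their summed level between the genotypes. The sum of 7 hepatocyte markers was 130 to 355 CPM in Fh1-/- and 88.7 to 268 CPM in Fh1+/+ kidneys at day 10, and Alb was at 3.55 to 10.7 CPM in Fh1-/- and 4.30 to 28.6 CPM in Fh1+/+ kidneys. Ahsg, another defining hepatocyte marker, was at 0 counts in at least 1 library of each of these groups. Of 6 hepatocyte markers tested, 2 had a log2 fold change above 0 and 4 below. By unadjusted edgeR p under 0.05, 1 was higher (15.1% of all genes) and 2 lower (11.9%). DESeq2 called Alb lower (2.06% of all genes). Serpina1a averaged 26.2 CPM in Fh1-/- and 9.15 CPM in Fh1+/+ kidneys, and Fabp1 15.6 and 6.43 CPM. Ttr made up most of the sum, at a mean of 127 CPM in Fh1-/- and 133 CPM in Fh1+/+ kidneys. Neutrophil markers were scarce, with a sum of 0.50 to 3.36 CPM in Fh1-/- and 1.99 to 53.9 CPM in Fh1+/+ kidneys.

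Some genes of tubular injury, of the acute phase and of the NF-kB targets were also called higher in Fh1-/- kidneys at day 10. DESeq2 called 4 of 6 tubular injury genes (Lcn2, Spp1, Krt20 and Sox9) and 2 of 6 NF-kB targets (Icam1 and Bcl3). It also called 8 of 12 acute phase and STAT3 target genes, against 3.49% of all genes as higher. In edgeR, 1 gene of these 3 lists was called, Fgg of the acute phase list, against 0.0279% of all genes as higher. Fh1-/- replicates 1 and 3 had the highest sum of 6 tubular injury genes (133378 and 126155 CPM) and replicate 2 the lowest (2727 CPM), against 828 to 2042 CPM in Fh1+/+ kidneys at day 10. Spp1 made up most of this sum, at a mean of 53192 CPM in Fh1-/- and 1334 CPM in Fh1+/+ kidneys. The sum of 12 acute phase and STAT3 target genes was 18140, 942, 18181, 12413 and 5467 CPM in Fh1-/- replicates 1 to 5, against 275 to 472 CPM in Fh1+/+ kidneys. The sum of 6 NF-kB targets was 629, 131, 712, 299 and 232 CPM in Fh1-/- replicates 1 to 5, against 95.2 to 143 CPM in Fh1+/+ kidneys. Of 5 interferon gamma targets, 3 had a log2 fold change above 0 and 2 below (median 0.25). Neither edgeR nor DESeq2 called any of these 5 higher, and DESeq2 called Cxcl9 lower (2.06% of all genes). Their sum overlapped between the genotypes, at 62.1 to 305 CPM in Fh1-/- and 70.2 to 122 CPM in Fh1+/+ kidneys. The order of the Fh1-/- libraries for C3 was the same as that of their acute phase sums and that of their NF-kB target sums. The part of tubular injury, of the acute phase or of NF-kB in the complement values was not tested.

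At day 5 the ranges of all 9 complement genes overlapped between the genotypes. The log2 fold changes farthest from 0 were -0.33 for Cd55, -0.21 for C4b and 0.20 for both C2 and Cfb, and the median of the 9 was 0.06, against -0.006 for all genes tested. No gene separated the groups without overlap (0 of 9, against 0.521% of all genes as higher and 0.389% as lower). None passed the study's thresholds in edgeR (0.0208% of all genes passed as higher and 0.0139% as lower) or in DESeq2 (0.0974% and 0.118%). By unadjusted edgeR p under 0.05, 1 of 9 was higher (2.42% of all genes) and 0 were lower (2.37%). That gene was Cfb, at 482, 456, 478, 452 and 417 CPM in Fh1-/- kidneys, against 405, 370.3, 381, 439 and 392 CPM in Fh1+/+ kidneys. Of the 5 Fh1-/- libraries, 4 exceeded every Fh1+/+ library, and the log2 fold change was 0.20 (SE 0.07, edgeR adjusted p = 0.943).

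C3 was at 53.8, 262, 55.8, 133 and 55.5 CPM in Fh1-/- kidneys at day 5, against 135, 120.2, 104, 83.7 and 92.4 CPM in Fh1+/+ kidneys. In 3 Fh1-/- libraries it was below every Fh1+/+ library and in replicate 2 it was above all of them, so that the log2 fold change of 0.06 had an SE of 0.43 (edgeR adjusted p = 1) and a 95% interval of -0.78 to 0.89. Leaving out Fh1-/- day 5 replicate 2 gave -0.54.

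**Figure D3:**
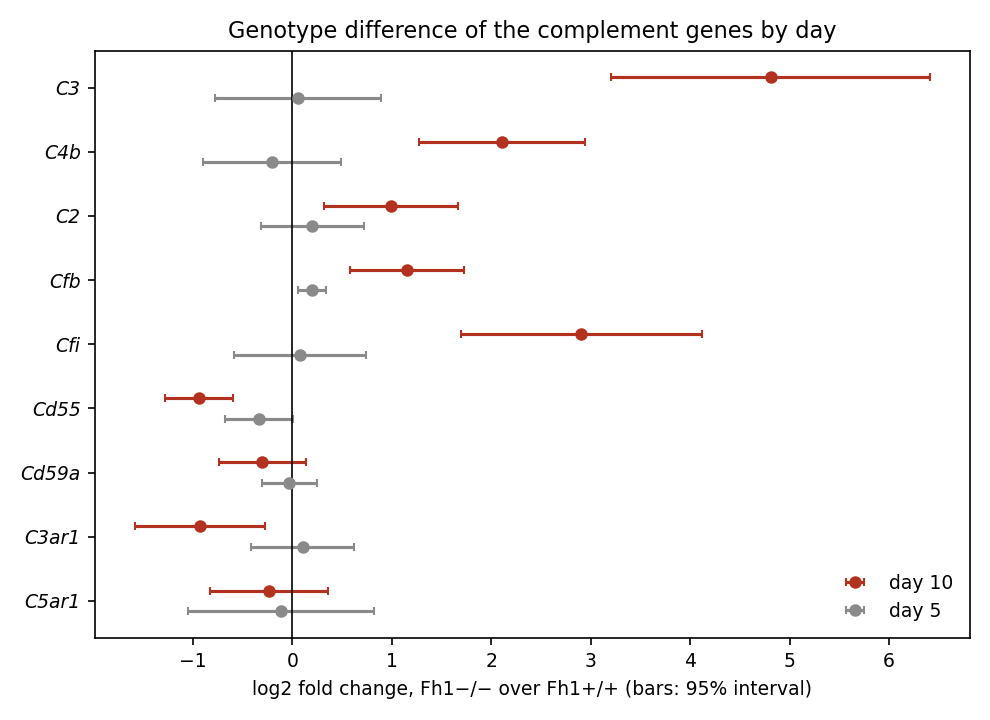
Log2 fold changes of Fh1-/- over Fh1+/+ kidneys are drawn for each gene at day 10 and day 5, from edgeR fits of 10 libraries each, with bars for the 95% interval. At day 10 the bars of C3, C4b, C2, Cfb and Cfi lie above 0 and those of Cd55 and C3ar1 below, and at day 5 the bar of Cfb alone clears 0.

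The genotype difference at day 10 was compared with that at day 5 in a model of all 20 libraries. The difference between the days was largest for C3, at 4.75 on the log2 scale (SE 0.91, edgeR adjusted p = 0.0253, DESeq2 adjusted p = 7.006e-06). It was 2.83 for Cfi (edgeR adjusted p = 0.0605), 2.32 for C4b (adjusted p = 0.0542) and 0.95 for Cfb (adjusted p = 0.113), and for C3ar1 it was -1.04 (adjusted p = 0.192). The value for Cd55 was -0.62 (SE 0.25, edgeR adjusted p = 0.190, DESeq2 adjusted p = 0.151). No gene of the 9 passed the study's thresholds with edgeR, which 0.0268% of all genes passed with a value above 0 and 0.0067% with a value below 0. By unadjusted edgeR p under 0.05, 4 of 9 had a value above 0 (11.8% of all genes) and 2 of 9 a value below 0 (8.4%). Those 2 were Cd55 and C3ar1, with genotype log2 fold changes of -0.94 and -0.93 at day 10, against -0.33 and 0.10 at day 5. DESeq2 called C3, C4b and Cfi with values above 0 (3 of 9, against 1.33% of all genes) and 0 genes with values below 0 (0.496%). Without Fh1-/- day 10 replicates 1 and 3, the difference was 3.04 for C3 (edgeR adjusted p = 0.0706), 2.43 for C4b, 2.03 for Cfi and -0.76 for C3ar1 (adjusted p = 0.472).

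Within Fh1-/- kidneys, Cd55 fell between the days and was the 1 gene of the 9 that passed the study's thresholds in edgeR. It was at 9.19, 8.27, 8.67, 8.30 and 10.4 CPM at day 10, against 15.1, 16.2, 25.6, 17.97 and 18.2 CPM at day 5, and the days did not overlap. The log2 fold change of day 10 over day 5 was -1.07 (SE 0.16, edgeR adjusted p = 0.0095). The call lay close to the threshold, and in 10 fits that each left out 1 library it was kept in 1, that without Fh1-/- day 10 replicate 2. The edgeR thresholds were passed by 0.239% of all genes as lower and 0.337% as higher at day 10.

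C2, C3, C4b, Cfb and Cfi were higher at day 10 than at day 5 in Fh1-/- kidneys, without passing those thresholds in edgeR. Day 10 over day 5, the log2 fold changes were 4.82 for C3 (edgeR adjusted p = 0.0152), 2.91 for Cfi (adjusted p = 0.0115), 2.35 for C4b (adjusted p = 0.0115), 1.05 for C2 (adjusted p = 0.0346) and 0.89 for Cfb (adjusted p = 0.0617). For these 5 genes every Fh1-/- library at day 10 was higher than every one at day 5 (5 of 9, against 6.83% of all genes), and for Cd55 every one was lower (1 of 9, against 5.68%). C2 was at 47.4, 88.7, 46.3, 49.5 and 87.4 CPM in Fh1-/- kidneys at day 5, just under the lowest day 10 value of 91.5 CPM. By unadjusted edgeR p under 0.05, 5 of 9 were higher (17.9% of all genes) and 2 of 9 lower (14.4%). DESeq2 called C2, C3, C4b and Cfi higher (4 of 9, against 5.24% of all genes) and Cd55 lower (1 of 9, against 3.76%). Without replicates 1 and 3 of day 10, edgeR called none of the 9, and the adjusted p was 0.0184 for Cfi, 0.0190 for Cd55, 0.0219 for C4b and 0.0275 for C3. The day and any difference in handling between days cannot be told apart.

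In Fh1+/+ kidneys, which received tamoxifen on the same schedule, the 9 genes overlapped between the days (0 of 9 apart, against 0.262% of all genes as higher and 0.352% as lower). None passed the study's thresholds with edgeR or DESeq2, nor did any of 14501 genes with edgeR (0% in either direction). Day 10 over day 5, the log2 fold change was 0.08 for C3, 0.08 for Cfi, 0.04 for C4b and -0.05 for Cfb. By unadjusted edgeR p under 0.05, Cd55 alone was lower (1 of 9, against 1.98% of all genes) and 0 of 9 were higher (1.99%). It was at 12.8 to 24.1 CPM at day 10 and 17.5 to 28.0 CPM at day 5, a log2 difference of -0.45 (SE 0.18, edgeR adjusted p = 0.948). These comparisons share their day 10 and day 5 libraries with the genotype comparisons above.

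C2 and Cfi also followed the Y-linked transcripts. In every group the libraries with Y-linked transcripts near 0 had more C2 and more Cfi than the others. In Fh1-/- kidneys at day 10, C2 was at 117 to 180 CPM in the 3 libraries near 0 and at 91.5 and 105 CPM in the other 2, and in Fh1+/+ kidneys of that day it was at 70.9 and 127 CPM against 37.6 to 59.2 CPM. Cfi was at 41.8 to 105 CPM in the 3 Fh1-/- libraries near 0 and at 27.9 and 38.0 CPM in the other 2, and in Fh1+/+ kidneys at 9.43 and 21.2 CPM against 3.18 to 4.15 CPM. Within either class of libraries Cfi did not overlap between the genotypes at day 10, while C2 overlapped in the libraries near 0. At day 5 the same order held, with 11.9 and 14.0 CPM of Cfi in Fh1-/- libraries near 0 against 4.24 to 5.72 CPM in the others, and with 11.8 CPM in the 1 Fh1+/+ library near 0 against 5.96 to 7.89 CPM.

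A Y-linked term, added to the 4 groups after these values were seen, was tested in edgeR over all 20 libraries and 14934 genes. Libraries near 0 were 1.85 times higher for C2 (log2 difference of libraries near 0 over the others 0.89, SE 0.13, adjusted p = 6.006e-05) and 2.72 times higher for Cfi (1.44, SE 0.20, adjusted p = 4.509e-05). The adjusted p of the other 7 genes was 0.152 or more, and 2.77% of all genes were higher in libraries near 0 at the study's thresholds. With this level as a covariate, the genotype log2 fold change at day 10 was 2.78 for Cfi (edgeR adjusted p = 0.0103) and 0.88 for C2 (adjusted p = 0.0589). The 2 Fh1-/- libraries that stood apart, replicates 1 and 3, are both near 0 for Y-linked transcripts.

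**Figure D4:**
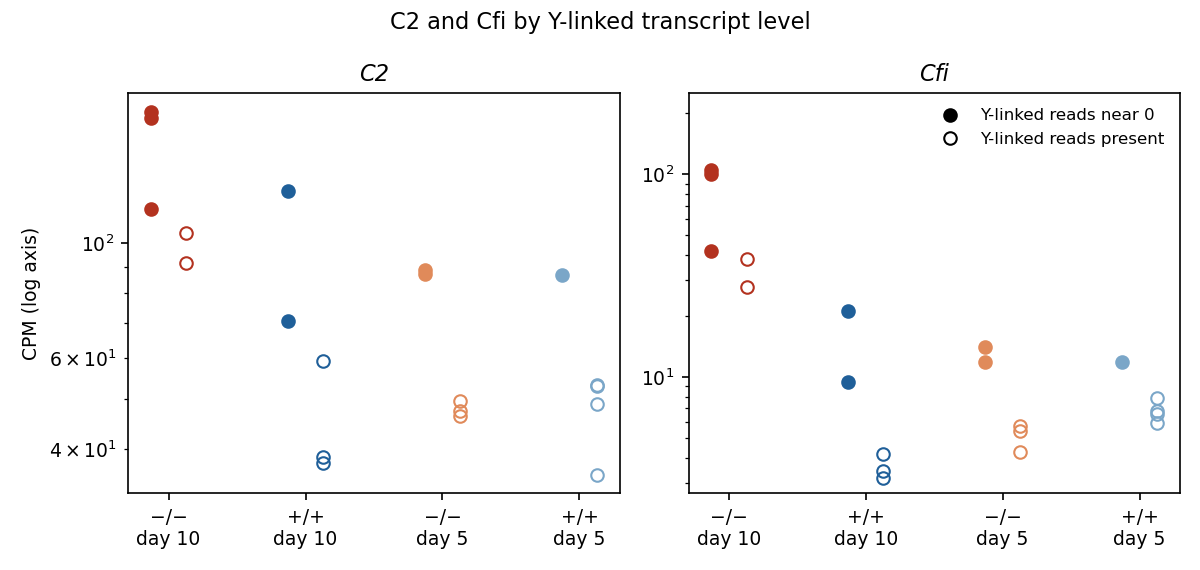
CPM of C2 and Cfi on log axes in the 4 groups, with filled points for libraries in which Y-linked transcripts were near 0 and open points for the others. Within each group the filled points lie above the open ones.

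Across the 20 libraries the 9 genes did not form 1 pattern. As a description over libraries that share genotype, day and Y-linked class, the Spearman correlation was 0.92 between C2 and Cfi, 0.76 between C3 and C4b and -0.74 between C2 and Cd55, while Cd59a stayed between -0.44 and 0.32 with all others. By the same measure among 14934 genes, C3 was most like Serpina3n (0.95), a protease inhibitor of the acute phase, followed by Plin4 (0.88) and Ndor1 (0.87). C4b was most like Cln8 (0.90), A2m (0.85) and Amica1 (0.84), and Cfb most like Tnfrsf21 (0.94), Pcsk5 (0.93) and Hsd17b4 (0.92). C2 was most like Ppapdc1b (0.97), Cyp2d22 (0.96) and Ipo5 (0.95), and Cfi most like Npl (0.95), Prr5l (0.93) and Ctbp2 (0.92). The membrane regulator Cd55 had among its closest genes Adamts8 (0.91) and Gm6300 (0.89), and Cd59a most like Apela (0.95), Tbc1d4 (0.95) and Mal (0.94), a protein of distal tubule membranes. C3ar1 was most like Themis2 (0.91), Cd48 (0.85) and Cx3cr1 (0.85), which are genes of leukocytes, and C5ar1 had the weakest likeness, to Arl5c (0.79), Bmper (0.76) and AB124611 (0.72).

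Of 49 other genes of the complement system, 48 were in the table and 32 were tested at day 10. Their median log2 fold change was -0.38, against 0.99 for the 9 genes and -0.0007 for all genes. The 9 genes and these lists were chosen with earlier results of these data known, so the medians are a description only. With edgeR none of the 32 passed the study's thresholds. By an unadjusted p under 0.05, 2 of the 32 were higher (15.1% of all genes) and 8 lower (11.9%). DESeq2 called 1 higher (3.49% of all genes) and 2 lower (2.06%). Of 11 tested genes that start the classical and lectin pathways, 3 were lower at an unadjusted p under 0.05 and 0 higher. C1s1, the protease that cleaves C4 and C2, was at 12.9 ± 2.68 CPM in Fh1-/- and 25.5 ± 6.07 CPM in Fh1+/+ kidneys (SD, n = 5 each). Its highest Fh1-/- library was at 16.88 CPM, just under the lowest Fh1+/+ library at 16.90 CPM. For C1s1 the log2 difference was -0.99 (edgeR adjusted p = 0.0376, DESeq2 adjusted p = 0.0003). C1qc, a chain of C1q, had a log2 difference of -0.71 (edgeR adjusted p = 0.121) and Masp2, a protease of the lectin pathway, one of -0.34 (adjusted p = 0.126). C8g, a chain of the terminal pore, was at 5.45 ± 1.60 CPM in Fh1-/- and 10.4 ± 2.66 CPM in Fh1+/+ kidneys (SD, n = 5 each), a log2 difference of -0.94 (edgeR adjusted p = 0.0706, DESeq2 adjusted p = 0.0085).

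Of the 9 other regulators tested, 2 were higher (15.1% of all genes) and 3 lower (11.9%) by an unadjusted edgeR p under 0.05. At the study's thresholds edgeR called none of them and DESeq2 called Cpn2 higher (3.49% of all genes). Clu, which encodes clusterin, an inhibitor of the terminal pore, was at 309 to 3550 CPM in Fh1-/- and 324 to 423 CPM in Fh1+/+ kidneys at day 10, a log2 difference of 2.06 (edgeR adjusted p = 0.108). Cpn2, a subunit of the enzyme that inactivates C3a and C5a, was at 0.79 to 6.62 CPM in Fh1-/- and 0.06 to 0.80 CPM in Fh1+/+ kidneys, a log2 difference of 2.88 (edgeR adjusted p = 0.0576, DESeq2 adjusted p = 0.0015). Serping1, the inhibitor of C1, had a log2 difference of -1.01 (edgeR adjusted p = 0.112), Vtn, which encodes vitronectin, one of -1.72 (adjusted p = 0.113) at a mean of 0.30 CPM in Fh1-/- and 1.04 CPM in Fh1+/+ kidneys, and Cd59b, the neighbour and paralog of Cd59a, one of -1.32 (adjusted p = 0.127). At day 5, 31 of the other genes were tested, with a median of -0.05. None of them passed the study's thresholds with edgeR or DESeq2. By unadjusted edgeR p under 0.05, 2 were lower (2.37% of all genes) and 0 higher (2.42%). They were C1s2, named after its values were seen (log2 fold change -1.01, edgeR adjusted p = 1), and Cfd. Cfd, which encodes factor D of the alternative pathway and is known from fat cells, was at 1.49 to 37.9 CPM in Fh1-/- and 2.71 to 136 CPM in Fh1+/+ kidneys (log2 fold change -2.54, edgeR adjusted p = 0.967). The sum of 4 adipocyte markers was 0.63 to 23.8 CPM in Fh1-/- and 3.35 to 45.7 CPM in Fh1+/+ kidneys of that day, and its part in the Cfd values was not tested.

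**Figure D5:**
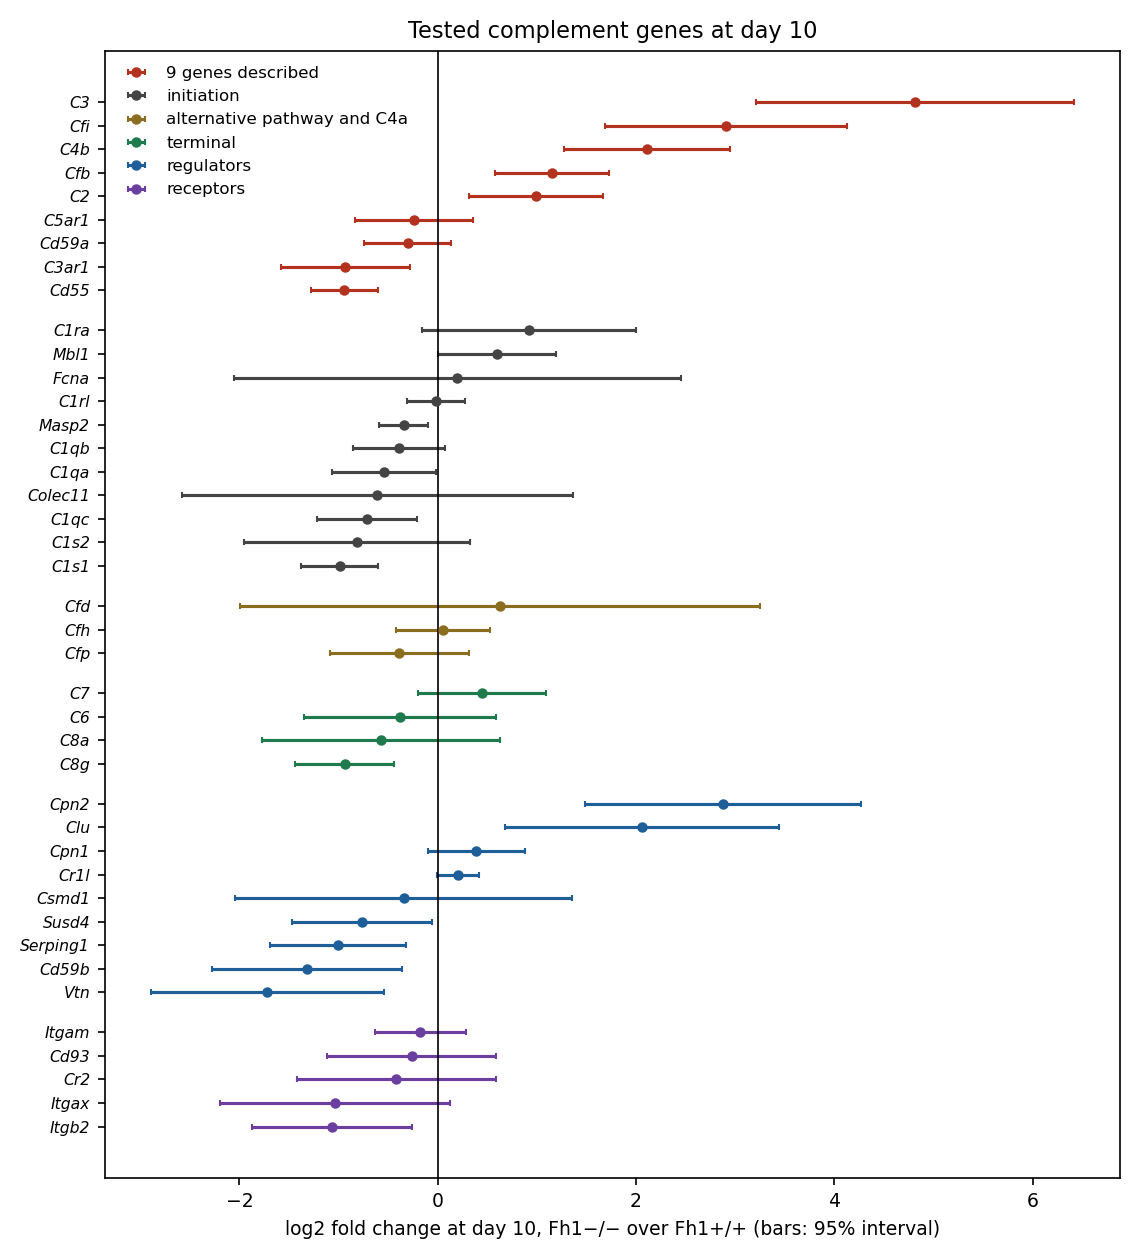
Log2 fold changes of Fh1-/- over Fh1+/+ kidneys at day 10 for the 9 genes and the 32 other complement genes tested, sorted within each list, with bars for the 95% interval from edgeR. Above a log2 difference of 2 lie C3, Cfi and C4b of the 9 genes and Cpn2 and Clu of the regulators.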

How the data were processed

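Kidney RNA-seq of 20 mouse libraries, 5 each of Fh1-/- and Fh1+/+ at day 10 and day 5, was analysed from deposited counts. By the study's methods, the authors made these raw counts per gene symbol from stranded libraries of polyadenylated RNA by STAR 2.6.0c alignment to GRCm38, removal of adapters and reads of low mapping quality, and Rsubread counting. Any strand setting of the counter was not given in the sources used here. Overlapping genes and paralogs may share reads. From the counts, edgeR 4.0.16 in R 4.3.3 was used (TMM, filterByExpr, quasi-likelihood test, Benjamini-Hochberg adjustment over all genes tested). CPM are TMM-normalized over 20 libraries. Each day and each genotype was fitted on its own 10 libraries, and the interaction of genotype and day on 20. The script was tested on simulated data that held no outlying libraries and no Y-linked difference. That test cannot show how far the calls depend on either. Within groups, every pair of libraries differed by more than sampling noise (chi-square per degree of freedom 7.49 or more). The lowest value was that of Fh1-/- day 10 replicates 1 and 3, and the other pairs of that group had 55.9 to 373. Such values do not show that 2 libraries came from different animals, which the labels do not name. Counts measure depth, and low counts limit C3ar1 and C5ar1.

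Genes were called at an adjusted p under 0.01 and an absolute log2 fold change over 0.58, as in the study. The 9 genes and all lists were chosen with earlier results of these data known. The other complement genes named were, by a fixed rule, the 10 with the lowest unadjusted p among those under 0.05 in a genotype comparison of either day. C1s2 was added to them. Likeness used log2 CPM with a prior count of 2, and 1 gene that it named is not reported here. Results were recomputed with DESeq2 1.42.0, with RLE normalization, without a filter and with one of 1 CPM in 5 libraries, at an adjusted p under 0.05, with a replicate block, with a Y-linked covariate (above or below 10 CPM), with quality-weighted voom in limma 3.58.1, with 1 fit of 20 libraries, and after dropping each library in turn. Dropping Fh1-/- day 10 replicates 1 and 3 together and testing the Y-linked term were chosen after seeing the data. Positions are from GENCODE vM21 (GRCm38) and promoters from RefSeq.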

Additional observations from a re-analysis of the deposited data

Results flagged for a closer look

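In Fh1-/- kidneys at day 10, C3ar1 was at 4.50 CPM in replicate 2 and between 1.47 and 1.79 CPM in the other 4 libraries. The gap to the nearest library was 0.893 of the range of the group, above the critical value of Dixon's test for 5 samples (0.71). It was 1 of 36 combinations of gene and group tested, of which chance would give 1.8. The leukocyte markers summed to 69.1 CPM in that library and to between 21.0 and 48.4 CPM in the others, and their part in the C3ar1 value was not tested.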

How the results depend on the processing

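At day 10 the log2 fold changes of all 9 genes kept their sign in all 90 values from fits that left out 1 library and in 90 from other settings, but the number of genes called was 0 with the design used and 5 with DESeq2, 5 with 1 fit of 20 libraries and 4 at an adjusted p under 0.05. It was 0 to 2 when 1 library was left out, the 2 (C3 and C3ar1) without Fh1-/- day 10 replicate 2. The difference between the days had 0 calls, 3 with DESeq2, 1 at an adjusted p under 0.05 (C3), 1 with the Y-linked covariate (Cfi) and 0 to 1 when 1 library was left out, with 5 to 7 genes under an unadjusted 0.05. The day effect in Fh1-/- kidneys had 1 call, 5 with DESeq2, 5 at an adjusted p under 0.05, 5 with 1 fit of 20 libraries, 4 with the Y-linked covariate, 3 with voom, 0 without both Fh1-/- day 10 replicates 1 and 3, and 0 to 5 when 1 library was left out, the 5 without Fh1-/- day 10 replicate 2. At day 5 the genes under an unadjusted 0.05 numbered 1, 2 with voom, 0 with 1 fit of 20 libraries and 0 to 2 when 1 library was left out, and in Fh1+/+ kidneys 1 and 0 to 2. Settings at an adjusted p under 0.05 had no fold threshold. The shares of all genes called are given above for the main fits and for DESeq2. They were not computed for the other settings or for fits that left out libraries, so those counts are a description only. The cause of these shifts was not tested.

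Same-numbered libraries did not deviate together (correlations from -0.549 to 0.375), and a library correlated best with its own number in 3 of 20 cases, so the numbers are not read as pairs. With the replicate number as a block, 0 genes were called at day 10, 0 were under an unadjusted 0.05 at day 5 and 0 were called between the days in Fh1-/- kidneys. The signs that turned were of values near 0 that no test called. With the block they were C3 -0.25 and Cfi -0.039 at day 5, and C3 -0.011, C4b -0.16 and Cfi -0.28 between the days in Fh1+/+ kidneys. With the Y-linked covariate they were C3 -0.17, Cfi -0.26 and C3ar1 -0.057 at day 5, and C2 -0.0039 and Cfi -0.55 between the days in Fh1+/+ kidneys. With voom they were C3 -0.33, Cfi -0.17 and C3ar1 -0.14 at day 5, Cd59a 0.17 in Fh1-/- kidneys between the days, and C4b -0.20, Cfi -0.40 and C3ar1 -0.0043 in Fh1+/+ kidneys. Without both replicates 1 and 3, the difference between the days of C5ar1 was 0.069 and the day effect of Cd59a in Fh1-/- kidneys 0.19. Leaving out 1 library at day 5 gave -0.54 to 0.24 for C3, -0.59 to 0.0073 for C4b, -0.20 to 0.28 for Cfi, -0.13 to 0.043 for Cd59a, -0.051 to 0.22 for C3ar1 and -0.37 to 0.10 for C5ar1. The same gave -0.32 to 0.13 for the difference between the days of C5ar1 and -0.22 to 0.070 for the day effect of Cd59a in Fh1-/- kidneys. In Fh1+/+ kidneys the day effect ran from -0.11 to 0.48 for C2, -0.15 to 0.24 for C3, -0.33 to 0.27 for C4b, -0.63 to 0.29 for Cfi and -0.073 to 0.16 for C3ar1. Depth limits C3ar1 and C5ar1 most, which had as few as 22 counts in a day 10 library, and C5ar1 as few as 8 counts in an Fh1-/- and 7 counts in an Fh1+/+ library at day 5.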
